A study of Homo sapiens with 4 samples.

Results

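The regions described here are the BRPF3 peaks on human chromosome 17 in RKO cells, an established colon carcinoma line. They were chosen by chromosome, as every chromosome 17 peak in the deposited lists. These were 822 of 13431 peaks in the HU list, 719 of 11532 in the mimosine list and 829 of 13160 in the asynchronous list. Overlapping peaks of the 3 lists were merged, which gave 858 regions on chromosome 17 out of 14039 in the genome. Since the choice rests on where peaks were called, the number and density of peaks are given as a description, with no test.

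Chromatin immunoprecipitation with sequencing (ChIP-seq) was run on 4 libraries. Cells of the HU list were held in 0.5 mM mimosine for 22 h, released for 3 h and then given 3 mM hydroxyurea (HU) for 1 h 30 min. Cells of the mimosine list were taken after 0.5 mM mimosine for 22 h without release, and asynchronous cells were untreated and growing normally. A homemade rabbit antibody against BRPF3 was used for these 3 libraries, and rabbit IgG on HU-treated cells gave the control named in the titles of all 3 lists. One label field of the BRPF3 libraries names other BRPF proteins, while titles and antibody field name BRPF3. With a single BRPF3 library for each condition there are no replicates, and differences between lists describe these libraries only. The mimosine and asynchronous lists have no control library of their own condition.

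BRPF3 is a scaffold protein of histone acetyltransferase complexes of the MYST family. Its bromodomain, PHD fingers and PWWP domain are modules that bind modified histones, and it pairs with the acetyltransferase KAT7 (HBO1), which acetylates histone H3 and has been linked to the start of DNA replication. Mimosine holds cells around the onset of replication, and hydroxyurea starves replication forks of nucleotides. Chromosome 17 is known as one of the most gene-rich human chromosomes.

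The label "gene-dense" was checked by counting protein-coding genes per chromosome name in the RefSeq table of GRCh38, with no use of that build's positions. Chromosome 17 had 1169 such genes, and the other 21 autosomes had 17957 in all. Set over the span between the first and last peak (81.0 Mb on chromosome 17), this is 14.4 genes per Mb, rank 2 of the 22 autosomes.

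Chromosome 17 carried more BRPF3 peaks per Mb than any autosome other than chromosome 19, in each of the 3 lists. The HU list held 10.1 peaks per Mb (95% Poisson interval 9.46 to 10.9), the mimosine list 8.88 (8.24 to 9.55) and the asynchronous list 10.2 (9.55 to 11). The pooled values of the other 21 autosomes were 4.52, 3.89 and 4.41 peaks per Mb in the same lists, so chromosome 17 stood 2.25, 2.28 and 2.32 times higher. Chromosome 22 came next with 9.45 (8.46 to 10.5) in the HU list, 8.08 (7.16 to 9.08) in the mimosine list and 9.16 (8.19 to 10.2) in the asynchronous list, and its intervals overlap those of chromosome 17. All intervals cover counting error only, and neighbouring peaks are not independent of each other.

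**Figure D1:**
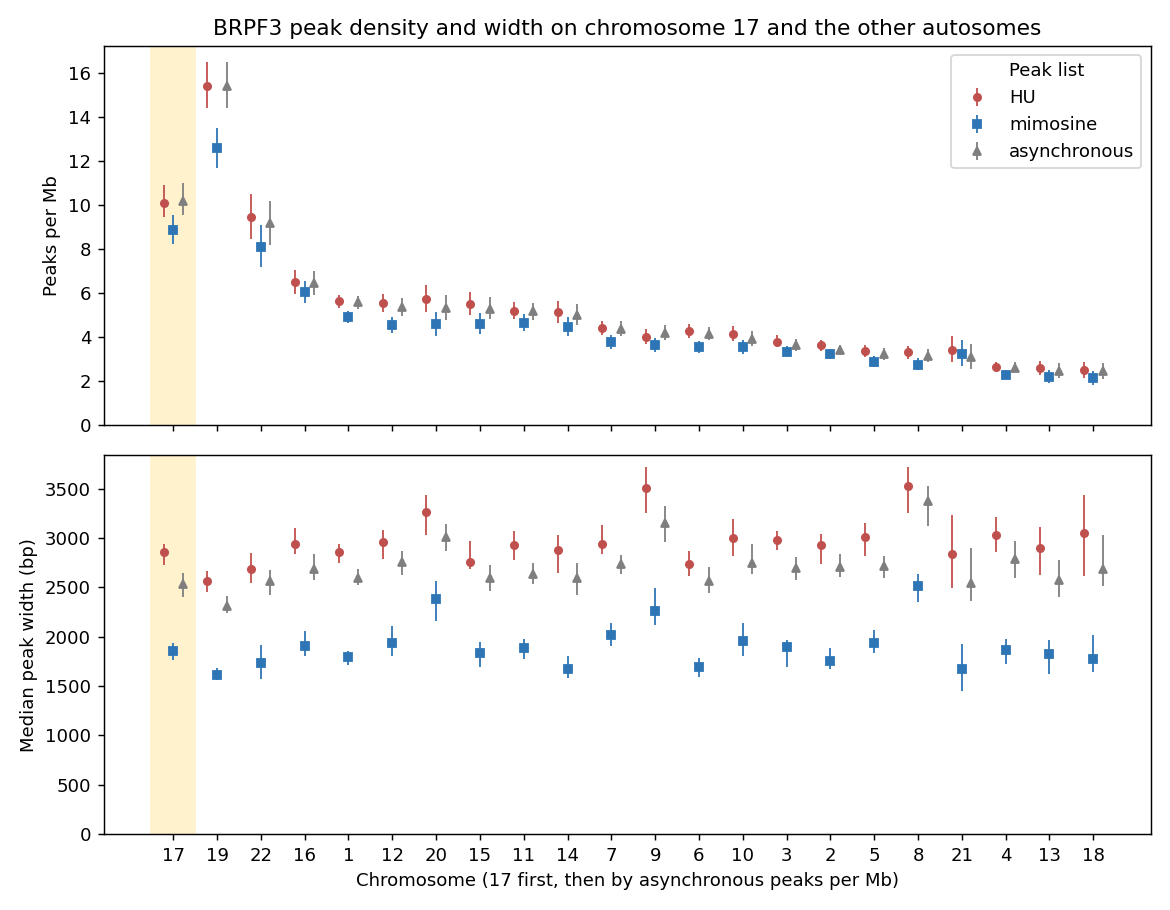
Peaks per Mb (upper panel, 95% Poisson intervals) and median peak width in bp (lower panel, 95% order-statistic intervals) on each autosome, with chromosome 17 shaded at the left. In the HU, mimosine and asynchronous lists, chromosome 17 lies at 10.1, 8.88 and 10.2 peaks per Mb, below chromosome 19, and its median widths of 2854, 1852 and 2536 bp lie within the range of the other autosomes.

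Peaks on chromosome 17 covered 2.60 Mb in the HU list, 1.5 Mb in the mimosine list and 2.37 Mb in the asynchronous list. This is 3.21, 1.85 and 2.92% of the span on chromosome 17, against 1.48, 0.837 and 1.33% on the other autosomes. Neighbouring peaks lay a median of 34.4 kb apart in the HU list, 39.5 kb in the mimosine list and 34.5 kb in the asynchronous list on chromosome 17. On the other autosomes these gaps were 60.2, 65.3 and 62.1 kb.

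Counted per gene instead of per Mb, chromosome 17 was close to the other autosomes. It had 0.703 peaks per protein-coding gene in the HU list, against 0.680 pooled over the other autosomes and a range of 0.535 to 0.760 among them. In the mimosine list the value was 0.615 on chromosome 17, against 0.586 on the other autosomes (0.479 to 0.653). In the asynchronous list it was 0.709 on chromosome 17, against 0.664 (0.490 to 0.757). Chromosome 17 thus ranked 10, 9 and 6 of 22 on this scale in the HU, mimosine and asynchronous lists. Which genes the peaks lie at was not analysed here, since no annotation of the peaks' build was at hand.

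Peaks were spread along nearly the whole chromosome and were crowded in a few stretches. In 1 Mb bins counted from the short-arm end, 76 of 82 bins held at least 1 merged region, and the median bin held 9.50 regions. Only 7.32% of chromosome 17 bins were empty, the lowest share of the 22 autosomes, against 28.0% of the bins on the other 21 autosomes. In the asynchronous list alone chromosome 19 was lower, at 8.33% against 8.54%. Bins before the first peak of a chromosome count as empty, as on chromosome 13, with 116 bins for a span of 95.8 Mb. Bins with 20 or more regions made up 13.4% of chromosome 17 bins, against 3.06% pooled over the other 21 autosomes. The share was 40.0% on chromosome 19 and 7.69% on chromosome 16. The fullest 10% of bins held 29.6% of the chromosome 17 regions. On the other autosomes that share ran between 20.8 and 46.3%, and only chromosome 19 had a lower share than chromosome 17.

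The 5 fullest bins together held 161 regions, 18.8% of the chromosome 17 total. The bins at 7 to 8 Mb and at 79 to 80 Mb, near opposite ends of the chromosome, held 35 regions each. The first of them carried 34 HU, 35 mimosine and 38 asynchronous peaks, and the second 34, 32 and 35. The bin at 40 to 41 Mb held 34 regions, the bin at 73 to 74 Mb 31, and the bin at 80 to 81 Mb 26. Peak counts of the 3 lists within these 5 bins came to 154 in the HU, 145 in the mimosine and 156 in the asynchronous list. The bins were picked by regions merged from these same lists, so the counts are a description only.

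**Figure D2:**
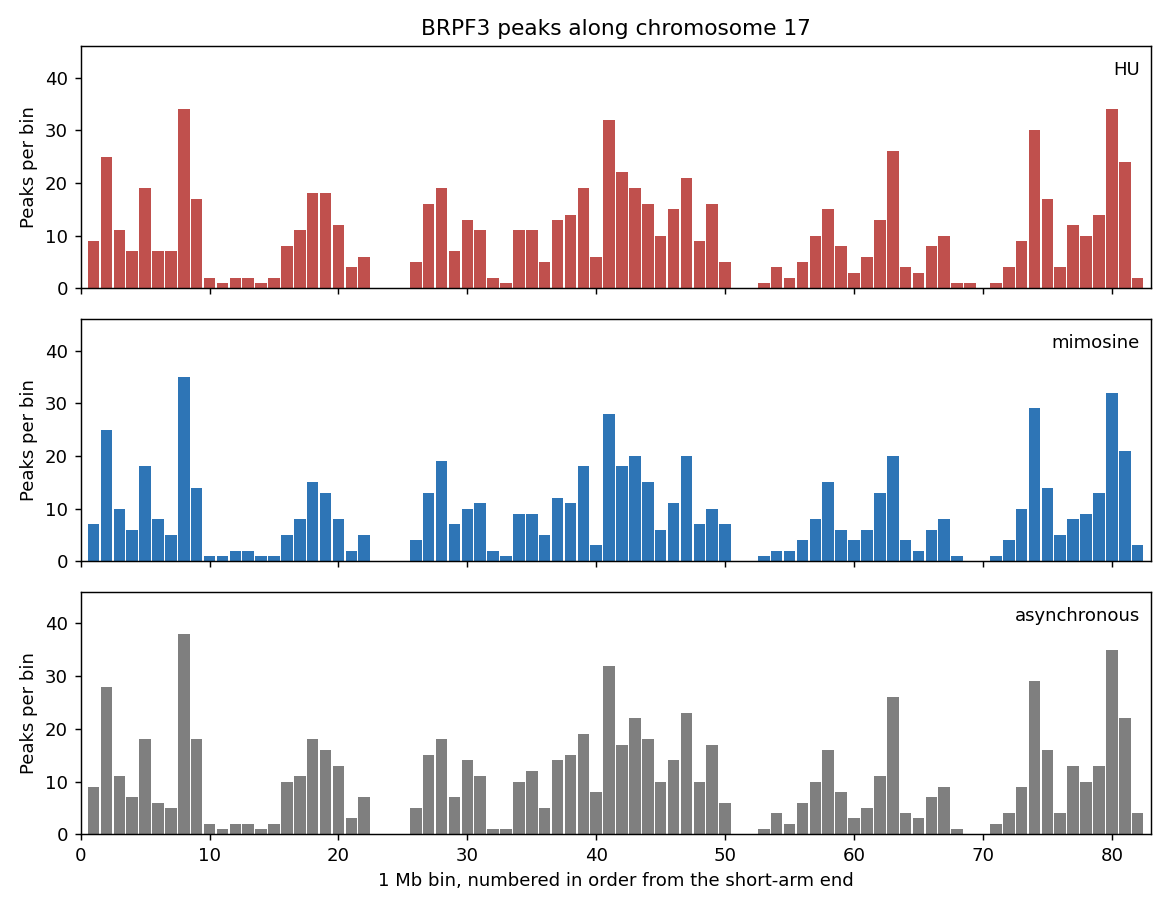
Peaks per 1 Mb bin (vertical axis) along chromosome 17, with bins numbered from the short-arm end (horizontal axis), for the HU, mimosine and asynchronous lists. The 5 fullest bins by merged regions hold 20 or more peaks in each of the 3 lists, with 34, 35 and 38 peaks in bin 8. Bin 42 passes 20 in the HU list only, with 22, 18 and 17 peaks. Bins 23 to 25 and bins 51 and 52 hold 0.

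The longest stretch without a peak in any list was chr17:21455298-25620411, 4.17 Mb long, which separates the regions of the short arm from those of the long arm. The next, chr17:49450399-52977681, spanned 3.53 Mb, and the third, chr17:68165846-70116999, spanned 1.95 Mb. The third held the only empty bin outside the first and second stretches. Density was similar on either side of the longest stretch. The short arm had 10.4 peaks per Mb in the HU list (9.09 to 11.9), 8.96 in the mimosine list (7.74 to 10.3) and 10.6 in the asynchronous list (9.30 to 12.1). The long arm had 10.8 (9.96 to 11.7), 9.51 (8.71 to 10.4) and 10.8 (9.99 to 11.7). The first 1 Mb bin of the short arm held 9 regions, 7 of them called in all 3 lists.

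Many regions formed runs, defined as consecutive regions with gaps of at most 20 kb. On chromosome 17, 487 of 858 regions (56.8%) lay in runs of 2 or more, against 42.1% of regions on the other autosomes. The values of single other autosomes ran between 26.5 and 61.9%, and the highest apart from chromosome 19 was 56.1%. Runs of 5 or more regions numbered 14 on chromosome 17 and held 102 regions, or 11.9%, against 7.50% pooled over the other autosomes. By this share chromosome 17 ranked 5 of 22, below chromosomes 19 (17.9%), 16 (16.8%), 11 (12.7%) and 6 (12.2%). The largest run, chr17:8054162-8154281, had 12 regions within 100 kb, 8 of them called in all 3 lists. The next, chr17:7117498-7258350, had 11 regions within 141 kb. Of the pair of runs with 9 regions, chr17:79813029-79896158 spanned 83.1 kb with 7 regions called in all 3 lists. The other, chr17:46618212-46725648, spanned 107 kb, and there all 9 regions held exactly 9 HU, 9 mimosine and 9 asynchronous peaks.

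Regions in runs and regions standing alone were compared next. On chromosome 17, regions in runs had a median width of 2789 bp (95% interval 2574 to 3008 bp) and regions standing alone 2876 bp (2730 to 3061 bp). Of regions called in the HU and asynchronous lists, 78 of 420 in runs (18.6%, 15 to 22.6%) and 52 of 340 standing alone (15.3%, 11.6 to 19.6%) had no mimosine peak. The intervals of these pairs overlap. The same pairs on the other autosomes lay in the same direction with separate intervals, at 2811 bp (2757 to 2870 bp) in runs against 3052 bp (3014 to 3097 bp) alone, and at 18.2% (17.1 to 19.4%) without a mimosine peak in runs against 15.4% (14.6 to 16.3%) alone. Regions called in all 3 lists made up 70.2% of chromosome 17 regions in runs and 77.6% of those standing alone, against 66.8% and 75.5% on the other autosomes.

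In each list the median peak width of chromosome 17 lay below that of the other autosomes, with separate intervals in the asynchronous list only. In the HU list the median width was 2854 bp on chromosome 17 (95% interval 2729 to 2941 bp), against 2927 bp on the other autosomes (2891 to 2956 bp). In the mimosine list it was 1852 bp (1763 to 1933 bp), against 1881 bp (1853 to 1908 bp). In the asynchronous list it was 2536 bp (2407 to 2646 bp), against 2678 bp (2650 to 2709 bp), and these intervals do not overlap. Among the 22 autosomes chromosome 17 ranked 17, 12 and 21 for width in the HU, mimosine and asynchronous lists, counted from the widest. The middle 50% of widths on chromosome 17 ran between 1851 and 3928 bp in the HU list, 1198 and 2585 bp in the mimosine list, and 1726 and 3543 bp in the asynchronous list.

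The score, a measure of the peak caller's confidence that is used here within a list only, had a median of 524 on chromosome 17 in the HU list (467 to 579), against 549 on the other autosomes (530 to 566). It was 287 (256 to 325) against 280 (273 to 291) in the mimosine list, and 544 (480 to 589) against 578 (562 to 592) in the asynchronous list. Scores of 3100 or more, which include peaks tied at exactly 3100, were carried by 59 HU, 19 mimosine and 57 asynchronous peaks of chromosome 17. These were 7.18, 2.64 and 6.88% of the chromosome 17 peaks, against 7.41, 3.00 and 7.66% on the other autosomes.

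The presence of chromosome 17 peaks across the lists lay close to that of the other autosomes, and the share of HU peaks found in the asynchronous list was the only one of 6 whose intervals did not overlap, and these meet at 91.5% after rounding. This holds for all peaks as deposited. The same number of highest-scoring peaks was also taken from each list over the genome. The share on chromosome 17 minus that on the other autosomes was then -6.33 percentage points for mimosine peaks in the HU list. It was -4.24 for mimosine peaks in the asynchronous list and 2.95 for asynchronous peaks in the mimosine list. Chromosome 17 held 341 HU, 369 mimosine and 344 asynchronous peaks of these sets, so its own numbers were not equal. Whether these unequal numbers account for the differences was not tested. Of 822 HU peaks, 636 overlapped a mimosine peak by at least 1 bp (77.4%, Clopper-Pearson 95% interval 74.4 to 80.2%), against 75.6% on the other autosomes (74.8 to 76.4%). Of 719 mimosine peaks, 99.6% overlapped an HU peak and 99.2% an asynchronous peak, against 99.6% and 98.8% on the other autosomes. The 3 mimosine peaks of chromosome 17 without an HU peak (0.417%) and the 6 without an asynchronous peak (0.834%) stand beside backgrounds of 0.468% and 1.14% of all mimosine peaks. Of 829 asynchronous peaks, 94.8% (93.1 to 96.2%) overlapped an HU peak and 77.8% (74.8 to 80.6%) a mimosine peak, against 94.6% and 77.8% on the other autosomes. As background, 24.6% of all HU peaks and 22.6% of all asynchronous peaks in the genome had no mimosine peak. On chromosome 17 the shares were 22.6% of HU peaks (186) and 22.2% of asynchronous peaks (184). The 43 asynchronous peaks without an HU peak were 5.19% of the chromosome 17 list, beside a background of 5.46%.

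HU peaks of chromosome 17 were found in the asynchronous list somewhat more often. The count was 768 of 822 (93.4%, 91.5 to 95%), against 91.0% on the other autosomes (90.4 to 91.5%), and only 2 of the other 21 autosomes had a higher share. The 54 HU peaks without an asynchronous peak are 6.57% of the chromosome 17 list, against a background of 8.82% over all HU peaks. When the other autosomes were weighted to the score groups of the chromosome 17 peaks, their share was 91.3%. The higher share on chromosome 17 lay in the lowest score groups. In the lowest of 10 groups of the HU list by score, 53.2% of 77 chromosome 17 peaks (41.5 to 64.7%) had an asynchronous peak, against 41.5% (38.7 to 44.3%) on the other autosomes, and these intervals overlap. The difference was 2.47 percentage points with all peaks, and it turned to -0.766 when the same number of highest-scoring peaks, 5766, was taken from each list.

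**Figure D3:**
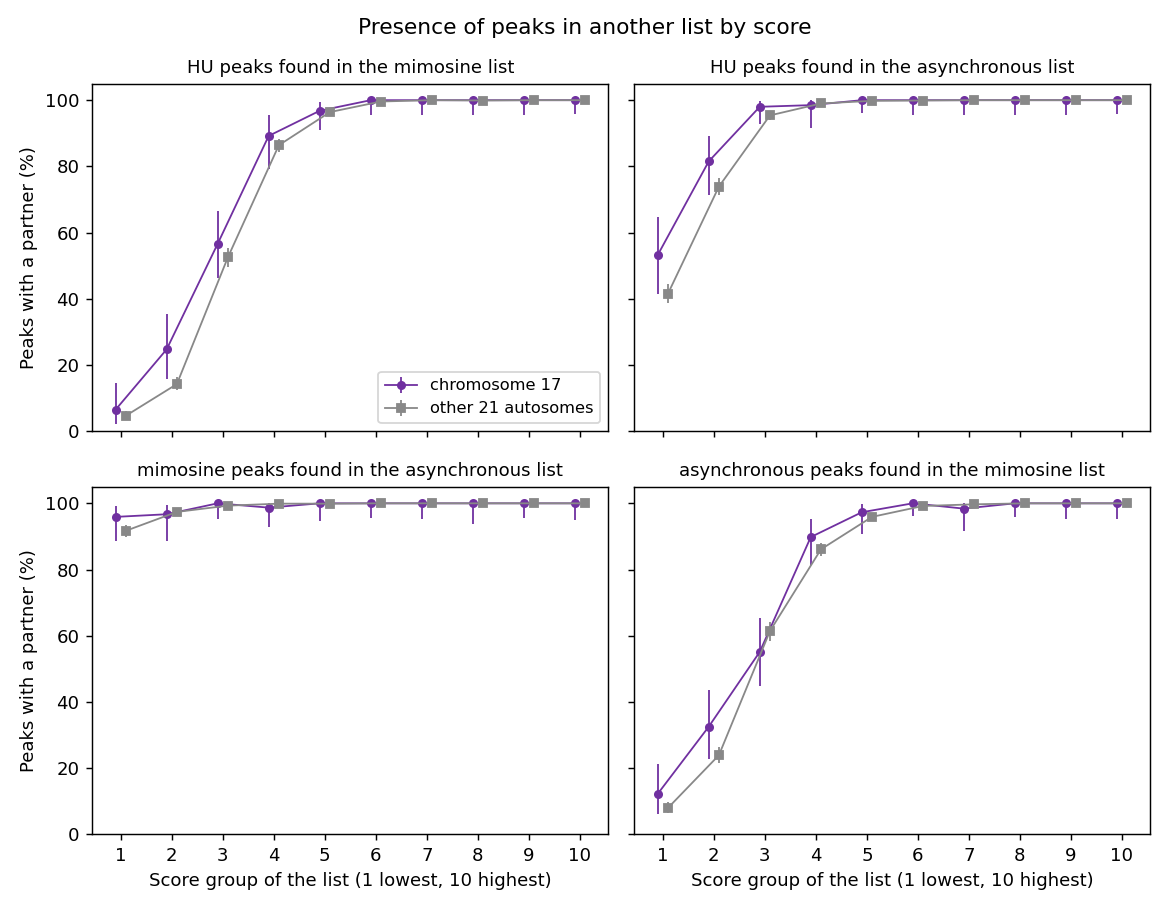
Share of peaks with a partner in another list (vertical axis, percent, with Clopper-Pearson 95% intervals) by 10 score groups of the list (horizontal axis), in 4 panels for HU peaks in the mimosine and asynchronous lists, mimosine peaks in the asynchronous list and asynchronous peaks in the mimosine list, for chromosome 17 and for the other 21 autosomes. On chromosome 17, 6.49% of HU peaks in the lowest group and 100% in the highest had a mimosine peak, and the chromosome 17 intervals overlap those of the other autosomes in every group.

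Absence went with low scores. Among the upper 50% of each list by score, 0 of 406 HU peaks of chromosome 17 lacked a mimosine peak, which allows a share of up to 0.739% (3 peaks of 406), and 1 of 403 asynchronous peaks did (0.248%). Elsewhere the autosomal shares were 0.0970% and 0.231%. Among the lower 50%, 186 of 416 HU peaks (44.7%, 39.9 to 49.6%) and 183 of 426 asynchronous peaks (43.0%, 38.2 to 47.8%) lacked one. On the other autosomes these shares were 49.3% and 44.9%. Without reads the depth of the libraries is unknown, so an absent peak means only that none was called.

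By merged region, 630 of the 858 chromosome 17 regions (73.4%, 70.3 to 76.4%) held a peak in all 3 lists, against 71.8% on the other autosomes. A further 130 (15.2%, 12.8 to 17.7%) were called in the HU and asynchronous lists and not in the mimosine list, against 14.2% on the other autosomes and a background of 14.7% of all regions. Set over the 760 regions called in the HU and asynchronous lists, this is 17.1% (14.5 to 20%), against 16.5% on the other autosomes. The asynchronous list alone held 41 regions (4.78%, background 4.97%) and the mimosine list alone held 1 (0.117%, background 0.242%). The HU list alone held 50 (5.83%, 4.36 to 7.61%), against 8.30% on the other autosomes (7.83 to 8.80%) and a background of 8.08%. Chromosome 17 ranked 20 of 22 for the share of HU-only regions. The HU and mimosine lists shared 4 regions without an asynchronous peak (0.466%), against 0.345% on the other autosomes, and the mimosine and asynchronous lists shared 2 without an HU peak (0.233%), against 0.125%.

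The share without a mimosine peak varied along the chromosome within wide intervals. It was 28.2% between 10 and 20 Mb (20 of 71 regions called in the HU and asynchronous lists, 18.1 to 40.1%), the highest of the 10 Mb segments. That segment also had a median asynchronous score of 377, against 734 between 70 and 80 Mb. Between 70 and 80 Mb, 15 of 127 regions (11.8%, 6.76 to 18.7%) had no mimosine peak. Between 40 and 50 Mb the median asynchronous score was lower still, at 367, and 29 of 152 regions (19.1%, 13.2 to 26.2%) had no mimosine peak. The lowest share lay past 80 Mb, at 1 of 22 regions (4.55%, 0.115 to 22.8%), with a median asynchronous score of 623. Segments were not tested against each other, and whether the score accounts for the difference was not tested.

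The run with most regions lacking a mimosine peak was chr17:62615051-62679361, chosen after its values were seen. It held 7 regions within 64.3 kb, and 5 of them had HU and asynchronous peaks and no mimosine peak. These 5 scored between 60.6 and 181 in the HU list and between 66.7 and 151 in the asynchronous list. They lay around chr17:62637175-62661306, a region of 24.1 kb and the second widest of the chromosome. There the asynchronous list held a single peak of 23970 bp, the HU list peaks of 4399 and 19389 bp, and the mimosine list a single peak of 15336 bp. The strongest HU, mimosine and asynchronous peaks of this region all scored 3100.

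The widest region of chromosome 17 was chr17:7736931-7763508, 26.6 kb long, in the crowded bin at 7 to 8 Mb. A single HU peak spanned all of it with a score of 3006. The mimosine list held 5 peaks covering 63.2% of it, with scores between 68.0 and 3100, and the asynchronous list held 4 peaks covering 76.2%, with scores between 61.5 and 3100. The peak of highest score was 8177 bp wide in the mimosine list and 8164 bp wide in the asynchronous list. The third, chr17:62490309-62505981, was 15.7 kb long and was covered by 1 HU peak, 4 mimosine peaks (61.4%) and 2 asynchronous peaks (79.6%). The fourth, chr17:7473599-7489059, had 1 HU peak of 15225 bp, mimosine peaks of 5071 and 5606 bp, and 1 asynchronous peak of 15461 bp. The fifth, chr17:7134804-7147920, was 13.1 kb long and mimosine peaks covered 75% of it. Mimosine peaks thus covered between 61.4 and 75% of each of the 5 widest regions.

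Splitting of this kind was as common on chromosome 17 as elsewhere. Of the 630 regions in all 3 lists, 5 held 2 or more HU peaks (0.794%, 0.258 to 1.84%), 70 held 2 or more mimosine peaks (11.1%, 8.76 to 13.8%), and 21 held 2 or more asynchronous peaks (3.33%, 2.07 to 5.05%). On the other autosomes these shares were 1.19, 11.8 and 2.74%. Peaks wider than 10 kb numbered 8 in the HU, 2 in the mimosine and 5 in the asynchronous list of chromosome 17. These were 0.973, 0.278 and 0.603% of its peaks, against 1.18, 0.247 and 0.897% on the other autosomes.

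At sites with exactly 1 peak per list, chromosome 17 peaks were narrower in the mimosine list and slightly wider in the HU list, by about the same factor as on the other autosomes. There were 546 such regions on chromosome 17, with median widths of 3033 bp in the HU list, 1910 bp in the mimosine list and 2745 bp in the asynchronous list. On the other autosomes these medians were wider, at 3240, 2003 and 2933 bp. The median ratio of HU over asynchronous width was 1.09 (1.08 to 1.10), and it was 1.09 on the other autosomes (1.09 to 1.09). The HU peak was the wider in 415 of 546 regions (76.0%), against 75% on the other autosomes. The median ratio of mimosine over asynchronous width was 0.704 on chromosome 17 (0.687 to 0.723), against 0.695 (0.691 to 0.70), with the mimosine peak narrower at 532 of 546 (97.4%, 95.7 to 98.6%), against 98.2%. The mimosine peak was narrower by 1.5-fold or more in 226 of 546 regions, or 41.4%, beside a background of 43.7%. Against the HU peak it was narrower by as much in 319 regions, or 58.4%, beside a background of 59.8%. The HU peak was wider than the asynchronous peak by 1.5-fold or more in 22 regions, or 4.03%, beside a background of 4.14%.

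The ratio was lowest for peaks that were narrow in asynchronous cells, on chromosome 17 as elsewhere. Regions with 1 peak per list were put in 4 equal groups by asynchronous width over the whole genome. In the narrowest group the mimosine over asynchronous ratio was 0.643 on chromosome 17 (0.604 to 0.678, 165 regions), and in the widest it was 0.740 (0.696 to 0.766, 127 regions). On the other autosomes the values were 0.641 and 0.747. The second group was the only one with separate intervals, at 0.726 on chromosome 17 (0.703 to 0.739, 132 regions), against 0.675 (0.665 to 0.684).

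**Figure D4:**
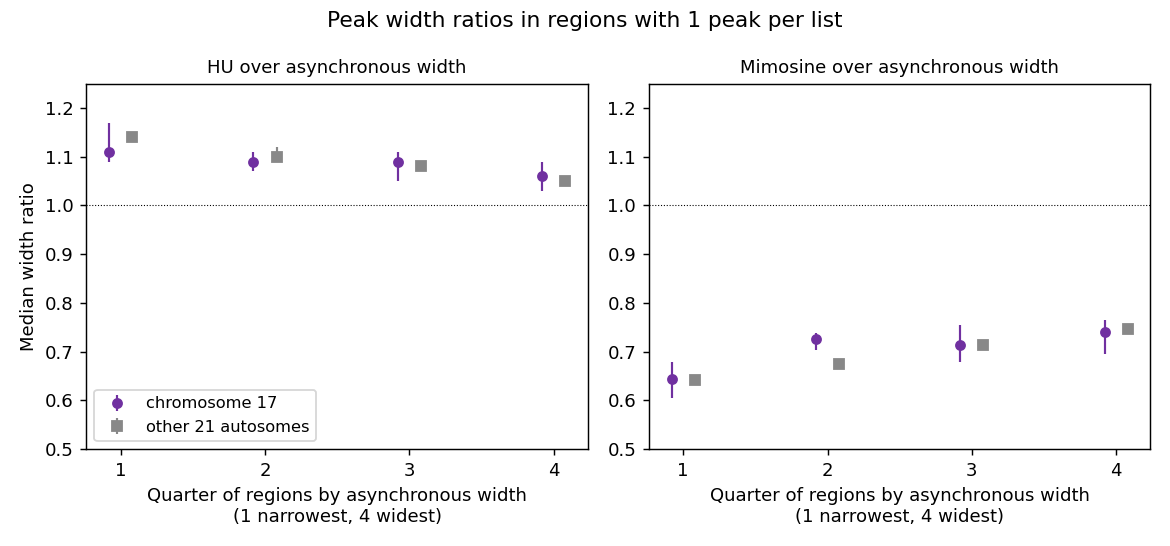
Median ratio of HU over asynchronous width (left) and of mimosine over asynchronous width (right) in regions with 1 peak per list, by 4 groups of asynchronous width (horizontal axis), with 95% order-statistic intervals, for chromosome 17 and the other 21 autosomes. Chromosome 17 and the other autosomes overlap in each group except the second group of the right panel, at 0.726 on chromosome 17 against 0.675.

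The lowest and highest ratios, among regions with a mimosine score of 100 or more, show how far single sites departed from the median. At chr17:48554812-48559617 the peak was 3167 bp wide in the HU list, 914 bp in the mimosine list and 4806 bp in the asynchronous list, a mimosine over asynchronous ratio of 0.190. The next were chr17:26368345-26372229 with a ratio of 0.237 and chr17:17726316-17728497 with 0.291. At the other end, chr17:7252912-7258350 had a peak of 5439 bp in the HU list, 4564 bp in the mimosine list and 3203 bp in the asynchronous list, a ratio of 1.42. It stood at rank percentile 84.7 of the HU list, 91.7 of the mimosine list and 64.4 of the asynchronous list. It was followed by chr17:36001798-36004143 with 1.14 and chr17:78118089-78122697 with 1.12.

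The 3 regions of highest score per list were all called in every list. In the HU list they were chr17:80007937-80012364, chr17:79372201-79376381 and chr17:57694424-57702611, and their mimosine peaks stood at rank percentiles between 88.1 and 92.0. In the mimosine list they were chr17:38276410-38282333, chr17:79813029-79822938 and chr17:8279235-8288400, all with HU and asynchronous peaks at 3100. In the asynchronous list they were chr17:6913091-6919126, chr17:75314954-75320416 and chr17:4869146-4874030. The third of these scored 3218 in the asynchronous list and stood at rank percentile 83.3 of the HU and 86.3 of the mimosine list. Peaks at exactly 3100 are tied within a list, while scores above 3100 differ from peak to peak. Whether scores above 3100 mark stronger peaks than a score of 3100 was not tested, so these are examples and not a ranking.

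Regions called in the HU and asynchronous lists alone had median scores of 114 in the HU and 138 in the asynchronous list, at rank percentiles 16.9 and 18.0, and the highest of them scored 479 and 794. The leading region of the HU and asynchronous lists, chr17:66286146-66289482, scored 479 in the HU and 541 in the asynchronous list. It was followed by chr17:39257835-39270443, where a single asynchronous peak of 12609 bp scored 794 and HU peaks covered 50.9% of it with a best score of 360. A neighbouring region, chr17:39245100-39246256, was the second of the asynchronous-only regions, with a score of 128. The third region of the HU and asynchronous lists was chr17:58154773-58157995, with scores of 364 and 383. The leading region of the HU and mimosine lists, chr17:41436066-41440837, had an HU peak of 4772 bp and a mimosine peak of 1461 bp. Its next members, chr17:41983702-41985058 and chr17:36890817-36891915, scored 139 and 69.8 in the HU list.

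The 2 regions of the mimosine and asynchronous lists were chr17:71087689-71089191, with scores of 104 and 73.0, and chr17:81008821-81010560, with scores of 56.2 and 86.5. The HU-only regions were led by chr17:65473566-65474791 with a score of 131, chr17:62097091-62098296 with 127 and chr17:18220912-18223485 with 123. The asynchronous-only regions were led by chr17:19090503-19092787 with a score of 143, and the third was chr17:14211936-14212872 with 109. The single mimosine-only region, chr17:31003470-31003897, was 428 bp wide with a score of 62.9.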

How the data were processed

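ChIP-seq peak lists of 3 BRPF3 libraries were used. Per the submitters' processing notes, Bowtie 0.12.8, SAMtools, MACS 1.4.0 and bedtools were used, without their order or settings, and the builds hg18 and hg19 are named. Peaks lie past the end of chromosome 17 in hg18, and on other chromosomes past the end in GRCh38, so positions are hg19, counted from 1. The authors deposited a score per peak, which is of the form of the caller's p-value as 10 times its negative base-10 logarithm, judged from the lists and their lowest value of 50. Reads were not analysed here, so depth is unknown.

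Peaks of chromosome 17 were set beside the other 21 autosomes in Python (version 3.11.15). Tables were handled with pandas 2.3.3, intervals were computed with SciPy 1.17.1 and NumPy 2.4.6, and plots were drawn with matplotlib 3.10.9. Peaks overlapping by at least 1 bp counted as shared. Spans run between the first and last peak of any list on a chromosome, with assembly gaps included. A share of 0 is given the limit that 3 counts would make. Other shares have Clopper-Pearson intervals, densities Poisson intervals and medians exact order-statistic intervals, all at 95% and for counting error only. No test was made, since each condition had 1 library and peaks are not replicates. The code of the overlap step was checked on a list drawn from the 13160 asynchronous peaks. It found 100% of kept and 0% of removed peaks, an outcome fixed by how the list was made. This checks the code only, not overlap between libraries.

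Named on chromosome 17 were the 3 highest-scoring regions per list, the 5 widest, up to 3 leading regions of each class called in fewer than 3 lists, the 3 lowest and highest mimosine over asynchronous ratios, the 5 fullest bins, the 3 longest runs (ties to the shorter) and the 3 longest peak-free stretches. Classes of several lists were ordered by the lower of the rank percentiles. A further run with as many regions as the third is named beside it, as is the run with most regions lacking a mimosine peak, chosen after its values were seen. The members and these rules were chosen with earlier results of these data known. Arms, 10 Mb segments, runs against single regions, groups by score and groups by width were added after the data were seen. As alternatives, peaks were limited to scores of 100 or more or to the same number of highest-scoring peaks in each list. Others were stricter overlap rules, merging within 1 kb, leaving out peaks wider than 10 kb, other bins and run gaps, and leaving out chromosome 19. Sequences of the peaks are not used here, as no genome of hg19 was at hand.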

Additional observations from a re-analysis of the deposited data

How the results depend on the processing

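Of the values recomputed for chromosome 17 or its difference from the other autosomes, 98 stayed within their interval or within 1.5 times their count, 45 moved further, and 1 difference whose interval lay clear of 0 changed sign. Those that stayed include every density, judged by the limit of 1.5 times. They also include every density ratio to the other autosomes (2.23 to 2.46), every width difference to them and every width ratio in shared regions. At scores of 100 or more, HU, mimosine and asynchronous densities fell to 8.74, 7.15 and 8.88 peaks per Mb, below their Poisson intervals. With a score of 100 or more, median widths became 3088, 2066 and 2747 bp and median scores 646, 387 and 636 in the HU, mimosine and asynchronous lists. Width differences from the other autosomes were then -117, -103 and -147 bp. HU peaks in asynchronous became 96.2%, regions in runs 51.6%, HU-only regions 25, mimosine-only 2, HU and mimosine 2, and mimosine and asynchronous 0. Merging within 1 kb gave a mimosine median width of 2055 bp. Presence under a reciprocal overlap of 50% was 58.0% for HU in mimosine, 66.3% for mimosine in HU, 74.3% for mimosine in asynchronous, 91.0% for asynchronous in HU and 64.4% for asynchronous in mimosine. The differences from the other autosomes were then 1.48 points for mimosine in HU and 2.23 for mimosine in asynchronous. Centres within 1 kb gave 91.1% for HU in asynchronous, 88.5% for mimosine in HU, 90.8% for mimosine in asynchronous, a difference there of 1.61 points, and 90.7% for asynchronous in HU.

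With equal numbers of 5766 top-scoring peaks, presence was 90.6% for HU in mimosine, 89.1% for HU in asynchronous, 85.9% for mimosine in HU, 85.1% for mimosine in asynchronous, 89.0% for asynchronous in HU and 89.8% for asynchronous in mimosine. Differences from the other autosomes were -6.33 points for mimosine in HU (0.0297 with all peaks), -4.24 for mimosine in asynchronous (0.326) and 2.95 for asynchronous in mimosine (-0.0328). HU in asynchronous went from 2.47 to -0.766, and asynchronous in HU from 0.228 to -1.13. Each of these changed sign, and only HU in asynchronous had an interval clear of 0 with all peaks. Chromosome 17 holds 341 HU, 369 mimosine and 344 asynchronous peaks in these sets, so numbers are equal over the genome and not on this chromosome. Classes became 287 regions in all 3 lists, 16 in HU and asynchronous, 21 in HU and mimosine, 19 in mimosine and asynchronous, 16 HU-only, 33 mimosine-only and 19 asynchronous-only. Bins of 0.5 Mb gave 23 regions in the fullest bin and 18.4% of bins empty. Run gaps of 10 and 50 kb put 41.1% and 81.6% of regions in runs. Recomputed widths of named regions stayed within 1.5 times in 99 cases and moved further in 3. At a score of 100 or more, chr17:36890817-36891915, chr17:81008821-81010560 and chr17:31003470-31003897 held no peak, so their widths could not be recomputed. Causes of these shifts were not tested. No paired analysis was possible because each condition had 1 library.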
